A study of Mus musculus with 10 samples.

Results

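Immediate early genes are the transcripts that a cell switches on first after a stimulus, and the 42 examined here cover the AP-1 transcription factors and the genes usually induced with them. Their levels were compared in aortae from male mice with a mutation in Npas2, a circadian clock transcription factor, and from male wild-type mice. The members were taken by name, with Ccn1 read as Cyr61 and Ccn2 as Ctgf, and each was represented by its probe set with the highest mean over all 10 arrays. All 42 had a probe set on the array, out of 45037 probe sets other than controls. Of these members 34 were bright enough to test, that is, brighter than the median probe set of the array on 5 arrays or more, as were 22340 probe sets in all. The other 8 (Fosb, Fosl1, Dusp2, Dusp5, Myc, Ccl2, Cxcl1 and Il6) were dim and are described by their levels and by permutation tests of each gene alone.

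Wild-type mice were C57Bl/6 and gave arrays F11, F14_2, F15, F16 and F17. NPAS2 mutant mice, on a C57Bl/6J background, gave arrays F12, F13, F18, F19 and F20. Both groups lived for at least 2 weeks in days of 12 h light and 12 h dark, followed by at least 30 h without light. They were killed under anaesthesia at zeitgeber time 14, in hours from the former lights-on, and the vessel was flushed with buffered saline and then water before it was removed and frozen. The labels call the piece thoracic aorta in 1 field and describe a longer piece in another, and they give neither the age of the mice nor the nature of the mutation. Whether each array held RNA from a separate mouse is not stated, so every p-value below measures the spread between these arrays. The only time point was a single hour of the day, so nothing here describes a rhythm.

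AP-1 is a dimer of a FOS family protein with a JUN family protein, or of either with an ATF or MAF relative, and it binds short DNA sites in front of many genes. Transcription of Fos, Egr1 and their kin starts within minutes of a growth factor, calcium, stretch or stress signal and needs no newly made protein. It is driven by factors already present, chiefly serum response factor with its ternary complex partners and CREB, and it is ended by products of the same wave such as the DUSP phosphatases and the mRNA-destabilising ZFP36 proteins. In the arterial wall these genes are known to respond to injury, stretch and vasoactive hormones in smooth muscle and endothelium.

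Correlations of levels between arrays, over all probe sets other than controls, lay between 0.986 and 0.996 over all pairs. None was computed for the members, which are described by deviations from their own means. High correlations of this kind do not make the arrays alike for every set of genes. The mean of the skeletal muscle markers, for example, ran from 3.23 on F11 to 11.05 on F12. Arrays F16 and F17, both wild type, stood apart for the members: 1 of them held the highest value for 22 of the 34 tested members, F16 for 10 and F17 for 12. Wild-type F11 and F14_2 and mutant F18 held the lowest value for 24 of the 34, with 8, 11 and 5 members. These counts were not made over all tested probe sets, so how far they are particular to the members is not known. The median level of all tested probe sets lay between 5.41 and 5.57 on the 10 arrays. The median deviation of the members from their own means over 10 arrays was 0.44 on F16 and 0.43 on F17, against -0.24 on F11, -0.29 on F14_2 and -0.24 on F18 (log2 scale). It was 0.03 on F15, and lay between -0.04 and 0.07 on mutant F12, F13, F19 and F20. The wild-type group thus held both the arrays where these genes were highest and 2 of the 3 where they were lowest. Changes led by F16 and F17 are given below with and without them. Npas2 itself was low: its tested probe set ranged from 3.44 to 3.96 in wild type and from 3.38 to 3.47 in the mutant (change -0.28, limma adjusted p = 0.249), and a second one from 2.22 to 2.45 on all arrays. Their position relative to the mutation was not given, and they do not check the labels.

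**Figure D1:**
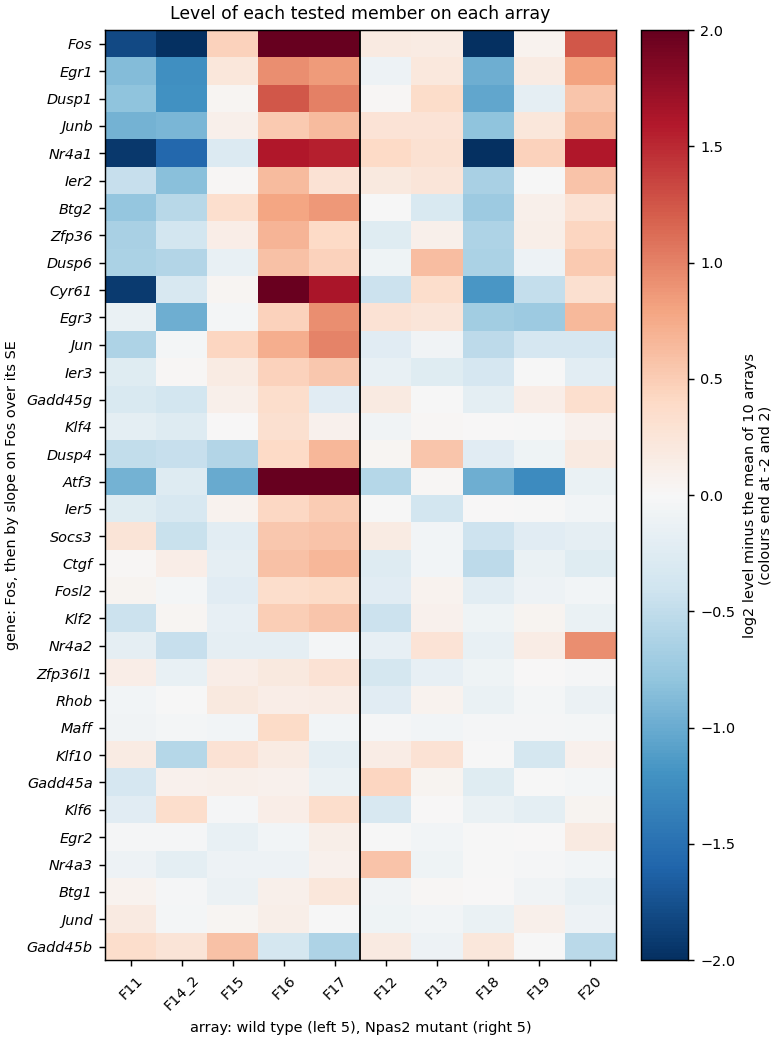
Level of each tested member (rows, 34 genes) on each of the 10 arrays (columns, wild type left of the line and mutant right of it), as the log2 level minus the gene's mean over the arrays. Fos is at the top and the other genes follow by their slope on Fos over its standard error; F16 and F17 are red for most of the upper rows and F11, F14_2 and F18 are blue.

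No member passed the test for a difference in mean level between mutant and wild type. In the limma fit over all tested probe sets 0 of the 34 passed an adjusted p (Benjamini-Hochberg) of 0.05, with adjusted p from 0.204 to 0.977, where the background was 48 of 22340 probe sets, 0.215%. At an unadjusted p under 0.05 there were 6 of 34 members (17.6%), close to the background of 15.3%. They were Ctgf, Ier3, Zfp36l1, Jun and Rhob, lower in the mutant, and Nr4a2, higher. The mean was lower in the mutant for 21 of 34 members (61.8%) and for 57.6% of all tested probe sets. The members' median change was -0.10 on the log2 scale, beside -0.03 over all. With arrays centred on their medians 22 were lower, where 63.2% of all tested probe sets were, and with quantile normalisation 21, where 50.5% were. No member had groups that did not overlap, a pattern seen in 4.01% of tested probe sets. In whole tissue, fewer cells of a type and less RNA per cell cannot be told apart.

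The spread between arrays was larger in wild type for most members, though none passed the adjusted test. The SD over 5 arrays was larger in wild type for 29 of the 34 members (85.3%), where the background was 46.8%. The median ratio of SDs, wild type over mutant, was 1.64 for the members. As mutant over wild type it was 0.61, beside 1.05 over all tested probe sets. Of the 34, 11 had a wild-type SD more than 2 times the mutant SD and 2 (Nr4a2 and Nr4a3) the reverse. A log2 ratio, mutant over wild type, from -1.5 to -1 was found in 20.6% of members and 7.06% of all tested probe sets. From -2 to -1.5 the shares were 5.88% and 3.43%, from 1 to 1.5 they were 2.94% and 8.98%, and from 1.5 to 2 they were 2.94% and 4.31%. In a limma fit to the absolute deviations from the group means 0 members were called, where the background was 0%, and the lowest adjusted p was 0.122, for Atf3. With 5 arrays a group this fit has little power at the adjusted threshold. On simulated data, where the spread of some genes had been raised in the mutant group alone, it called none of them, so 0 calls say little. The simulation did not copy the pattern of the members, whose SD was mostly larger in wild type. At an unadjusted p under 0.05, 9 of 34 (26.5%) were more variable in wild type and 0 in the mutant, where the backgrounds were 5.26% and 6.51%. The 9 were Jun, Ier5, Atf3, Dusp4, Klf4, Btg2, Ctgf, Maff and Socs3. The members are not independent: F16 and F17 were the 2 highest arrays for 16 of the 34, a count not made over all tested probe sets. These shares are therefore counts beside the background and not a test. With F16 and F17 both left out, the SD was larger in wild type for 21 and larger in the mutant for 13 of the 34 members, where it was larger in wild type for 41.8% of all tested probe sets. Without F14_2 alone it was larger in the mutant for 8 members in place of 5, and for 58.2% of all.

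**Figure D2:**
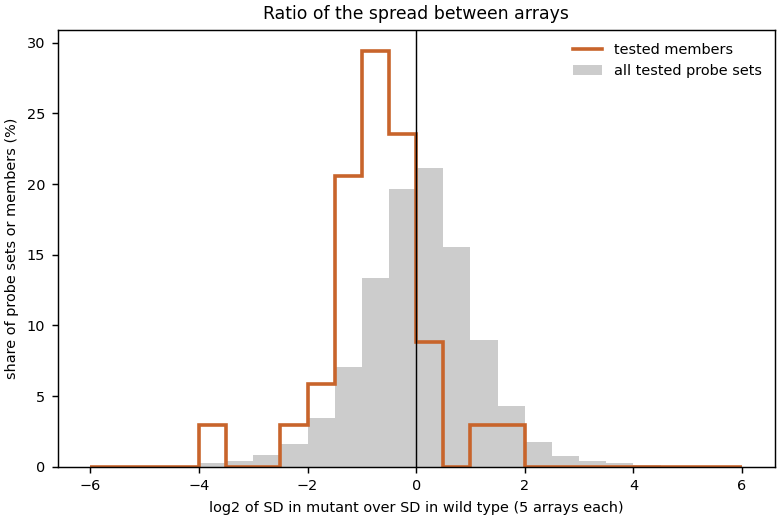
Share (%) of the 34 tested members (line) and of all 22340 tested probe sets (grey bars) by the log2 ratio of the SD over 5 mutant arrays to the SD over 5 wild-type arrays. Most of the members lie left of 0, where wild type varied more (29 of 34), and the grey bars are nearly centred on 0.

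Fos, the founding FOS protein gene and a subunit of the classical AP-1 dimer, had the widest range of levels in wild type. In wild type, Fos was 5.68 on F11, 5.05 on F14_2, 7.96 on F15, 9.96 on F16 and 9.55 on F17. Mutant arrays gave Fos levels of 7.68 on F12, 7.65 on F13, 5.09 on F18, 7.57 on F19 and 8.74 on F20. The wild-type arrays differed by 30.1 times from lowest to highest and the mutant arrays by 12.5 times. F16 and F17 were above every mutant array, F11 was inside the mutant range and F14_2 just under it, so the groups overlapped. The means were 7.64 ± 2.22 in wild type against 7.35 ± 1.35 in the mutant (SD over 5 arrays each), a change of -0.30 ± 1.01 (SE, limma adjusted p = 0.904). Without F16 or F17 or mutant F18, the change of Fos turned positive, up to 0.28, and without F16 and F17 together it was 1.11.

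Other members rose and fell with Fos from array to array. In a limma fit of every tested probe set on the level of Fos with the group as a second term, a fit chosen after the data were seen, 7 of 33 other members (21.2%) passed an adjusted p of 0.05, where the background was 13 of 22339 probe sets, 0.0582%. They were Egr1, Dusp1, Junb, Nr4a1, Ier2, Btg2 and Zfp36. Of the 13 probe sets 8 belonged to members, since Btg2 has a pair of them. The 5 others were 2 probe sets of Hspa1b, an inducible heat shock protein, 1 of Pfn2, a second probe set of Acta2, smooth muscle actin, and 1 with no gene name, all named after their values were seen. At an unadjusted p under 0.05, 19 of the 33 rose with Fos, where the background was 2.95%. The slope was positive for 32 of the 33 members and negative for Gadd45b (-0.16), and positive for 53.4% of all probe sets fitted.

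Egr1, a zinc finger factor induced by the same serum response elements as Fos, rose by 0.45 ± 0.03 (SE) per unit of Fos on the log2 scale, with a limma adjusted p of 2.87e-04. Wild-type levels of Egr1 were 7.61 on F11, 7.25 on F14_2, 8.71 on F15, 9.40 on F16 and 9.34 on F17. Mutant levels of Egr1 were 8.37 on F12, 8.69 on F13, 7.50 on F18, 8.64 on F19 and 9.28 on F20. The order of the arrays was nearly that of Fos: F14_2, F18 and F11 lowest, F16 and F17 highest, with mutant F20 beside them. The group means were 8.46 ± 0.99 (SD, n = 5) and 8.50 ± 0.65 (SD, n = 5), a change of 0.04 ± 0.46 (SE, limma adjusted p = 0.977).

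Dusp1, the phosphatase that switches off the MAP kinases upstream of these genes, had a slope of 0.47 ± 0.03 (SE, limma adjusted p = 3.38e-04). In wild type, Dusp1 was 9.33 on F11, 8.92 on F14_2, 10.17 on F15, 11.38 on F16 and 11.14 on F17. Mutant arrays gave Dusp1 levels of 10.15 on F12, 10.50 on F13, 9.09 on F18, 9.96 on F19 and 10.69 on F20. F16 and F17 were above all mutant arrays and F14_2 below them all. Nr4a1, an orphan nuclear receptor, had the steepest slope, 0.81 ± 0.06 (SE, limma adjusted p = 0.00122). Wild-type levels of Nr4a1 were 6.00 on F11, 6.36 on F14_2, 7.66 on F15, 9.52 on F16 and 9.47 on F17. Mutant levels of Nr4a1 were 8.33 on F12, 8.23 on F13, 5.78 on F18, 8.39 on F19 and 9.53 on F20. Here mutant F20 reached the level of F16 and F17, and mutant F18 was the lowest of all 10.

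Junb, a JUN protein that weakens AP-1 at many sites, followed with a slope of 0.36 ± 0.02 (SE, limma adjusted p = 3.57e-04). In wild type, Junb was 4.0 on F11, 4.03 on F14_2, 5.04 on F15, 5.47 on F16 and 5.58 on F17. Mutant arrays gave Junb levels of 5.21 on F12, 5.21 on F13, 4.13 on F18, 5.16 on F19 and 5.59 on F20. F11, F14_2 and F18 lay well under the other 7 arrays. Ier2, a small nuclear protein of the same wave, had a slope of 0.28 ± 0.02 (SE, limma adjusted p = 0.00241). Wild-type levels of Ier2 were 6.09 on F11, 5.72 on F14_2, 6.58 on F15, 7.20 on F16 and 6.85 on F17. Mutant levels of Ier2 were 6.75 on F12, 6.80 on F13, 5.91 on F18, 6.56 on F19 and 7.13 on F20. The lowest 3 arrays were again F14_2, F18 and F11.

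Btg2, an antiproliferative partner of the CCR4-NOT deadenylase, had a slope of 0.32 ± 0.03 (SE, limma adjusted p = 0.00858). In wild type, Btg2 was 6.08 on F11, 6.30 on F14_2, 7.20 on F15, 7.65 on F16 and 7.72 on F17. Mutant arrays gave Btg2 levels of 6.85 on F12, 6.55 on F13, 6.12 on F18, 6.97 on F19 and 7.15 on F20. Wild-type F16, F17 and F15 were above every mutant array. Zfp36, which binds AU-rich elements and hastens mRNA decay, had a slope of 0.24 ± 0.03 and the weakest of the 7 calls (limma adjusted p = 0.0406). Wild-type levels of Zfp36 were 6.44 on F11, 6.72 on F14_2, 7.22 on F15, 7.76 on F16 and 7.48 on F17. Mutant levels of Zfp36 were 6.84 on F12, 7.18 on F13, 6.47 on F18, 7.20 on F19 and 7.51 on F20. F16 was highest and F11 and F18 were lowest.

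The calls on Fos did not all rest on the same footing. Egr1, Dusp1, Junb, Nr4a1 and Ier2 passed in each of the 10 fits that left out a single array. Btg2 lost its call without F14_2, F16 or F17, and Zfp36 lost its call in every such fit but the one without F12. Without F16 and F17 together only Egr1 and Junb passed. Fos itself fell apart into 3 arrays up to 5.68 and 7 arrays from 7.57, so a correlation over all 10 is not given. Relations with Fos over the 7 upper arrays were computed for the 33 other tested members, with no group term. Of these, 28 had a positive Pearson's r and 15 an exact permutation p under 0.05 for it, 9 for Spearman's rho. The same counts were not made over all tested probe sets, so these have no background beside them. Egr1 had Pearson's r = 0.925 (exact permutation p = 0.00238) and Spearman's rho = 0.893 (p = 0.0123), and r = 0.903 over the 5 arrays left without F16 and F17. For Dusp1 the values were r = 0.951 (exact permutation p = 0.00218) and rho = 0.893 (p = 0.0123), and r = 0.737 without F16 and F17. Over the 7 arrays r was lower for Junb, Nr4a1 and Ier2, and r and rho fell on different sides of 0.05. Junb had r = 0.798 (exact permutation p = 0.0405) and rho = 0.643 (p = 0.139), and r = 0.810 without F16 and F17. Nr4a1 had r = 0.838 (exact permutation p = 0.0329) and rho = 0.571 (p = 0.2), and r = 0.731 without them. Ier2 had r = 0.757 (exact permutation p = 0.0524) and rho = 0.821 (p = 0.0341), and r = 0.808 without them. For Jun, Ier3, Ctgf and Socs3, r was between 0.752 and 0.854 over the 7 arrays and turned negative without F16 and F17, so those relations rested on these 2 arrays.

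**Figure D3:**
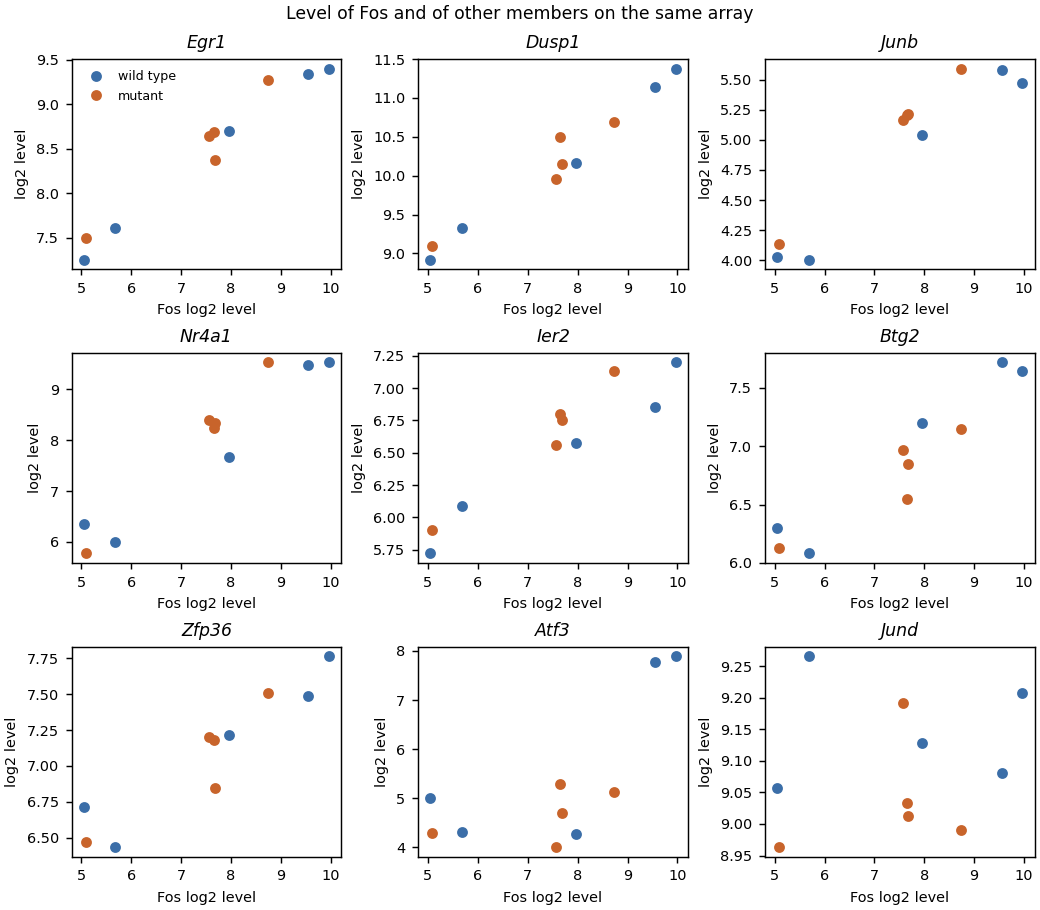
Log2 level of 9 members (vertical axes) against the log2 level of Fos (horizontal axes), 1 point per array, wild type and mutant in different colours. The 7 genes from Egr1 to Zfp36 climb with Fos in both groups, Atf3 is high only on F16 and F17, and Jund has a slope near 0.

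The 250 bases in front of the RefSeq start are printed for Fos and 5 of these followers (Junb, Nr4a1, Dusp1, Btg2 and Zfp36). Egr1 and Ier2 had no window among the member windows searched, which left out a single chromosome, so the site counts below do not cover them. The sequences run 5′ to 3′ on the gene's own strand (assembly GRCm38.p6) and are given since these genes moved together over the arrays. Capitals mark the core TGACG, or CGTCA on the other strand, of the cAMP response element that CREB and ATF proteins bind, and in Zfp36 the CArG box of serum response factor. Fos is on the plus strand at chr12:85473640-85473889, Junb on the minus strand at chr8:84978749-84978998 and Nr4a1 on the plus strand at chr15:101266596-101266845. Dusp1 is on the minus strand at chr17:26508473-26508722, Btg2 on the minus strand at chr1:134079156-134079405 and Zfp36 on the minus strand at chr7:28379229-28379478. The window of Nr4a1 lies at a start inside the gene, which RefSeq places at positions 101253902 to 101274795.
Fos: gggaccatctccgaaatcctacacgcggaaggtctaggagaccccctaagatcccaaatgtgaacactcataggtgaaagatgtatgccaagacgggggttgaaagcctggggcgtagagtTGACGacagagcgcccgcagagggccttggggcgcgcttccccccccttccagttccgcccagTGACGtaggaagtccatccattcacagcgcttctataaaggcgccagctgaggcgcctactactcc
Junb: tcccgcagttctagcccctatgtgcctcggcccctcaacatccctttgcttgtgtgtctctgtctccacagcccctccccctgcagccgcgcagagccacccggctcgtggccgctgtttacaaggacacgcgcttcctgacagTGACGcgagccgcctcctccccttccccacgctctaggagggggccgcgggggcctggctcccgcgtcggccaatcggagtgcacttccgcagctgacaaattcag
Nr4a1: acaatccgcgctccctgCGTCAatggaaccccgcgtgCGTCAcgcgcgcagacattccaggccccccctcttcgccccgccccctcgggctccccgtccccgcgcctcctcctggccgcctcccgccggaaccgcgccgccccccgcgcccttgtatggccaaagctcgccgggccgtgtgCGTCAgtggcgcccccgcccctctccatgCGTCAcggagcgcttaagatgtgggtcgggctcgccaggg
Dusp1: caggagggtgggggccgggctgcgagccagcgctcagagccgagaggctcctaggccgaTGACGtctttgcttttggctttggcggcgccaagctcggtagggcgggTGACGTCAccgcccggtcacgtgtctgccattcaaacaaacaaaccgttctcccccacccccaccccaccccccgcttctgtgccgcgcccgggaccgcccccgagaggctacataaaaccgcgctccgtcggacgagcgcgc
Btg2: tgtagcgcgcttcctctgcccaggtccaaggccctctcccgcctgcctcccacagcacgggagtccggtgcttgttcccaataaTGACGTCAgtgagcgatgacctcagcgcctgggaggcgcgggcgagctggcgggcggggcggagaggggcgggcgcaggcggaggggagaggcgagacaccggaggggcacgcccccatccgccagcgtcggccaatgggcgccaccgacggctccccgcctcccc
Zfp36: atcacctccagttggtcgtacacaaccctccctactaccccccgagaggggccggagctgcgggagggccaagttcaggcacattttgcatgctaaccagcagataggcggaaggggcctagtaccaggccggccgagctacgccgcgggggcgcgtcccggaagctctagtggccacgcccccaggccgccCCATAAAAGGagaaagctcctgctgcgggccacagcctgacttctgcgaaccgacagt

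Fos carried 2 such cores, Junb 1 and Nr4a1 4. Dusp1 carried 1 and a whole element, TGACGTCA, which holds the core on both strands, and Btg2 a whole element. Zfp36 had no such core and 1 CArG box, which begins 58 bases before the start. Over the 33 members matched to a RefSeq window of 300 bases (250 before the start and 50 after), 17 held TGACG on either strand (51.5%), against 20.8% of all 32851 windows. The whole element TGACGTCA was in 2 (Btg2 and Dusp1) and in 1.79% of all windows. The AP-1 site TGACTCA, searched on both strands, was in 1 (Il6) against 5.2% of windows. The CArG box was in 2 (Zfp36 and Dusp5) against 1.63%, and the EGR site GCGGGGGCG in 8 against 2.91%. Sites outside these windows were not searched, so a gene without a site here may hold one farther away. The E-box CACGTG, the site of the NPAS2, CLOCK and BMAL1 proteins, was in 7 members, Dusp1 among them, against 7.15%. The base composition of the windows was not accounted for, and the core lies inside every whole element counted. Member windows on a single chromosome were left out of the search, while the background kept that chromosome.

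Among the other FOS proteins, Fosb was dim and stood above the rest on F16 and F17. In wild type, Fosb was 2.21 on F11, 2.19 on F14_2, 2.16 on F15, 3.40 on F16 and 2.78 on F17. Mutant arrays gave Fosb levels of 2.23 on F12, 2.20 on F13, 2.22 on F18, 2.33 on F19 and 2.22 on F20. Its SD was 0.54 in wild type and 0.05 in the mutant, a ratio of 10.6 (two-sided permutation of the deviations, p = 0.00794). That p is the smallest that 5 arrays against 5 can give. The deviations were taken from estimated means, so this p and those of other SD ratios are approximate and not exact. The difference in the means of Fosb was -0.31 (exact permutation p = 0.437). Fosl1 stayed between 2.41 and 2.48 on all 10 arrays and was dim on each. Fosl2, a FOS protein without a strong activating domain, had a mean of 8.11 ± 0.26 in wild type against 7.90 ± 0.12 in the mutant (SD over 5 arrays each), and its 2 highest arrays were F16 and F17.

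Jun, the main partner of FOS, had the larger SD in wild type. Wild-type levels of Jun were 7.47 on F11, 8.03 on F14_2, 8.50 on F15, 8.80 on F16 and 9.07 on F17. Mutant levels of Jun were 7.85 on F12, 8.01 on F13, 7.55 on F18, 7.73 on F19 and 7.74 on F20. The mutant arrays stayed within 1.37 times of each other and the wild-type arrays within 3.05 times. The SD was 0.64 in wild type and 0.17 in the mutant, a ratio of 3.79 (permutation p = 0.0238). The spread fit gave a limma adjusted p of 0.323. The mean was 8.38 ± 0.64 in wild type against 7.78 ± 0.17 in the mutant (SD over 5 arrays each), a change of -0.60 ± 0.26 (SE, limma adjusted p = 0.303), and unadjusted p = 0.0417. Of the wild-type arrays 4 were above the highest mutant array, F13, and F11 was below the lowest. A second probe set of Jun had a change of -0.42 and was highest on F16, where the first was highest on F17. Without F16 and F17 the change of Jun was -0.22 (limma adjusted p = 0.705).

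Jund, the JUN protein that most cells keep at a steady level, was flat. In wild type, Jund was 9.27 on F11, 9.06 on F14_2, 9.13 on F15, 9.21 on F16 and 9.08 on F17. Mutant arrays gave Jund levels of 9.01 on F12, 9.03 on F13, 8.96 on F18, 9.19 on F19 and 8.99 on F20. All 10 arrays lay between 8.96 and 9.27, its SD was 0.09 in both groups, and its slope on Fos was 0.00 ± 0.02 (SE). Its change was -0.11 ± 0.06 (SE, limma adjusted p = 0.427).

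Atf3, a stress-induced partner of JUN, had the largest change in mean of the members and the lowest spread p. Wild-type levels of Atf3 were 4.32 on F11, 5.01 on F14_2, 4.26 on F15, 7.90 on F16 and 7.78 on F17. Mutant levels of Atf3 were 4.70 on F12, 5.28 on F13, 4.29 on F18, 4.0 on F19 and 5.13 on F20. F16 and F17 stood more than 2 units above every other array, while the other 3 wild-type arrays lay inside the mutant range. The mean was 5.85 ± 1.84 in wild type against 4.68 ± 0.54 in the mutant (SD over 5 arrays each), a change of -1.17 ± 0.74 (SE, limma adjusted p = 0.461). The ratio of SDs was 3.38 (permutation p = 0.0159), and the spread fit gave a limma adjusted p of 0.122. Leaving out F11 or F14_2 brought that adjusted p to 0.0473 and 0.00375, leaving out F16 or F17 to 0.412 and 0.398, and deviations from the group medians to 1.0. Without F16 and F17 the change turned to 0.15 and the SD became larger in the mutant, by 1.31 times. On F15 and mutant F12, F13 and F19, where Fos was between 7.57 and 7.96, Atf3 was between 4.0 and 5.28. Its slope on Fos was 0.54 ± 0.16 (SE, limma adjusted p = 0.918).

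Maff, a small MAF protein with no activating domain, was low and flat but for 1 array. In wild type, Maff was 3.29 on F11, 3.32 on F14_2, 3.31 on F15, 3.74 on F16 and 3.32 on F17. Mutant arrays gave Maff levels of 3.35 on F12, 3.32 on F13, 3.34 on F18, 3.34 on F19 and 3.33 on F20. Only F16 left the narrow band of the other 9. Its ratio of SDs, 14.7 (permutation p = 0.00794), rested on F16: without that array the SD of the mutant was 1.04 times that of wild type.

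**Figure D4:**
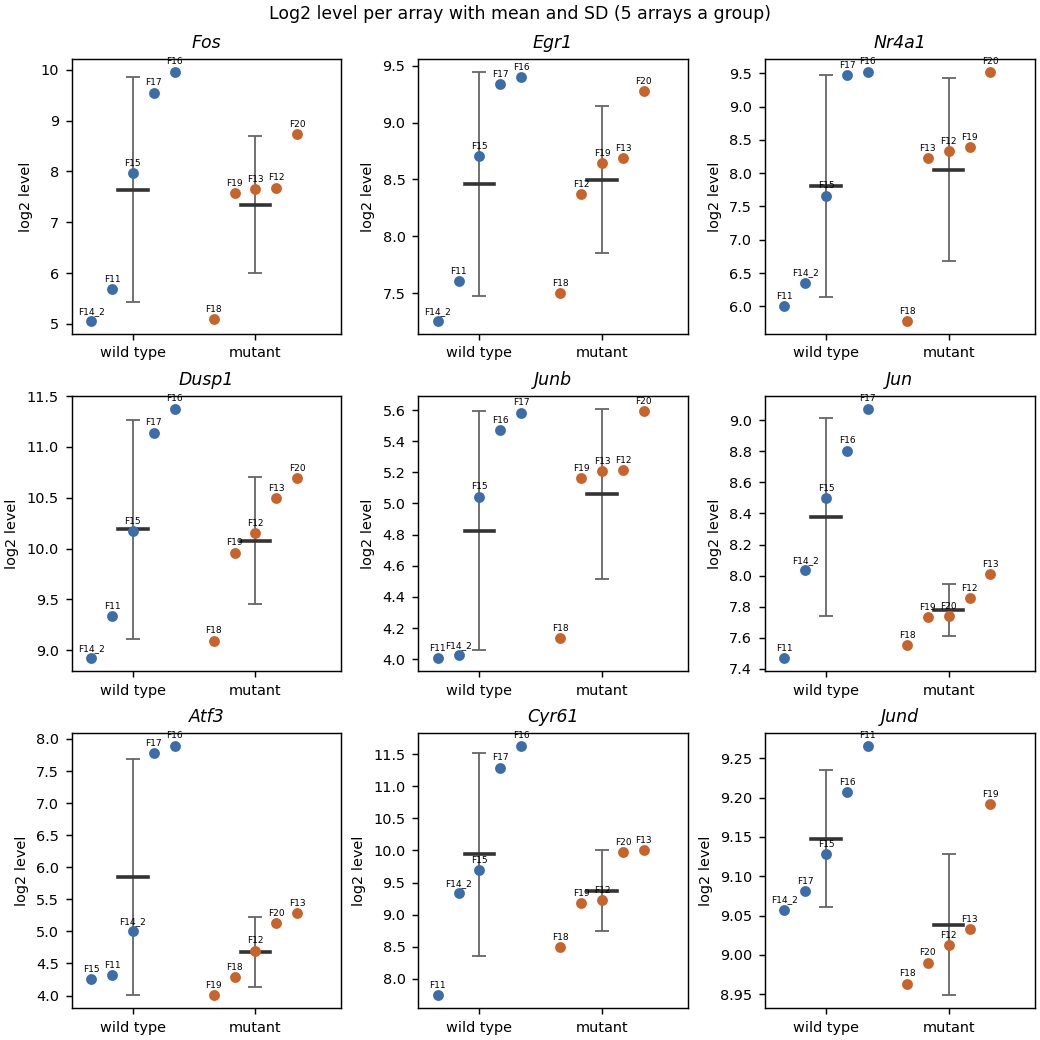
Log2 level of 9 members on each array (points, labelled with the array's name), with the mean (bar) and SD (whisker) of the 5 wild-type and 5 mutant arrays. In Fos, Egr1, Nr4a1, Dusp1 and Junb the low points are wild-type F11 and F14_2 and mutant F18, Jun and Atf3 have narrow mutant groups, and Jund stays between 8.96 and 9.27.

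Egr2, an EGR zinc finger gene of nerve and immune cells, lay between 3.79 and 4.12 on all arrays. Egr3 ranged from 3.50 to 5.41 in wild type and from 3.74 to 5.12 in the mutant, with F17 highest and F14_2 lowest, and its slope on Fos was 0.30 ± 0.07 (SE, limma adjusted p = 0.595).

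The other NR4A receptors ordered the arrays differently from Nr4a1. Nr4a2, known for its part in dopamine neurons, had the higher mean and the larger SD in the mutant, as had Nr4a3 and Gadd45a. Wild-type levels of Nr4a2 were 5.79 on F11, 5.52 on F14_2, 5.80 on F15, 5.80 on F16 and 5.94 on F17. Mutant levels of Nr4a2 were 5.81 on F12, 6.25 on F13, 5.83 on F18, 6.13 on F19 and 6.90 on F20. Mutant F20, F13 and F19 were above every wild-type array, and F12 and F18 were among them. The mean was 5.77 ± 0.15 in wild type against 6.19 ± 0.44 in the mutant (SD over 5 arrays each), a change of 0.42 ± 0.19 (SE, limma adjusted p = 0.320), and unadjusted p = 0.0480. The mutant SD was 2.92 times the wild-type SD (permutation p = 0.0952). Without F20 that ratio was 1.45 and the change 0.24, and without F14_2 the ratio was 6.10. The 3 other tested probe sets of Nr4a2 had changes of 0.46, 0.23 and 0.57, with 0 called. Nr4a3 was low. In wild type, Nr4a3 was 3.38 on F11, 3.29 on F14_2, 3.38 on F15, 3.38 on F16 and 3.57 on F17. Mutant arrays gave Nr4a3 levels of 4.05 on F12, 3.39 on F13, 3.48 on F18, 3.45 on F19 and 3.42 on F20. Only mutant F12 was clearly higher than the rest, and its SD ratio of 2.67 (mutant over wild type) fell to 0.365 without F12.

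Among the IER genes, Ier3, a stress-induced regulator of cell survival, was higher on 4 of 5 wild-type arrays than on every mutant array. Wild-type levels of Ier3 were 7.19 on F11, 7.46 on F14_2, 7.60 on F15, 7.90 on F16 and 7.98 on F17. Mutant levels of Ier3 were 7.29 on F12, 7.19 on F13, 7.09 on F18, 7.43 on F19 and 7.23 on F20. The mean was 7.62 ± 0.32 in wild type against 7.25 ± 0.13 in the mutant (SD over 5 arrays each), a change of -0.38 ± 0.14 (SE, limma adjusted p = 0.245), and unadjusted p = 0.0215. F16 and F17 were its 2 highest arrays, and its wild-type SD was 2.57 times the mutant SD (permutation p = 0.0794). Without them the change was -0.17 (limma adjusted p = 0.608). Ier5 ranged from 5.54 to 6.38 in wild type, again with F16 and F17 at the top, and from 5.49 to 5.86 in the mutant.

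Of the other MAP kinase phosphatases, Dusp6, which acts on ERK in the cytoplasm, ranged from 6.27 to 7.49 in wild type and from 6.27 to 7.52 in the mutant. Its lowest 3 arrays were those of Fos, but it missed the threshold in the Fos fit (slope 0.27 ± 0.04 SE, limma adjusted p = 0.0949). Dusp4 ranged from 3.36 to 4.61 in wild type, where F16 and F17 were highest, and from 3.71 to 4.50 in the mutant. Dusp2 and Dusp5 reached at most 2.04 and 2.72 on any array, too dim to test. Zfp36l1, a relative of Zfp36, had a change of -0.24 ± 0.09 (SE, limma adjusted p = 0.259), with unadjusted p = 0.0266 and a slope on Fos of 0.04 ± 0.03 (SE). A second probe set of Zfp36l1 had a change of -0.39 (unadjusted p = 0.00556, limma adjusted p = 0.166). Btg1, a relative of Btg2, had a change of -0.10 ± 0.07 (SE, limma adjusted p = 0.515) and a slope on Fos of 0.01 ± 0.02 (SE).

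None of the 4 KLF zinc finger genes passed the test. Klf4, which represses contractile genes in smooth muscle, had nearly equal means and an unequal spread. In wild type, Klf4 was 8.81 on F11, 8.74 on F14_2, 9.0 on F15, 9.32 on F16 and 9.09 on F17. Mutant arrays gave Klf4 levels of 8.93 on F12, 9.02 on F13, 9.01 on F18, 8.99 on F19 and 9.08 on F20. The wild-type SD was 0.23 and the mutant SD 0.06, a ratio of 4.12 (permutation p = 0.0794). Klf2, a shear-stress gene of endothelium, ranged from 6.50 to 7.49 in wild type and from 6.51 to 7.02 in the mutant, with F16 and F17 highest. Klf6 had a change of -0.23 ± 0.12 (SE, limma adjusted p = 0.370, unadjusted p = 0.0766), and its 4 other tested probe sets ranged from -0.42 to -0.03. Those with changes of -0.42, -0.33 and -0.29 had unadjusted limma p of 0.0154, 0.0168 and 0.0130 (adjusted p of 0.217, 0.223 and 0.206). The remaining probe set had an unadjusted p of 0.582. Klf10, induced by TGF-beta, had a change of 0.06 ± 0.17 (SE, limma adjusted p = 0.876).

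The GADD45 stress sensors and the remaining regulators were mixed. Gadd45a had a change of 0.08 ± 0.13 (SE, limma adjusted p = 0.787) and Gadd45g one of 0.18 ± 0.15 (SE, limma adjusted p = 0.567). Gadd45b, the member with the negative slope on Fos, was lowest on F17, F20 and F16 (4.42, 4.49 and 4.69) and highest on F15 (5.61), and the slope of -0.16 ± 0.05 (SE) did not pass (limma adjusted p = 0.952). Socs3, the feedback inhibitor of interleukin-6 signalling, ranged from 5.65 to 6.66 in wild type and from 5.68 to 6.25 in the mutant. A second probe set of Socs3 gave a change of -0.01 in place of -0.28. Rhob, an early-response GTPase of endosomes, had a change of -0.17 ± 0.07 (SE, limma adjusted p = 0.305), with unadjusted p = 0.0425. Myc, the growth regulator, was too dim to test, at 3.73 on F11 and at most 3.15 elsewhere.

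The matricellular genes Cyr61 and Ctgf, both targets of YAP and serum response factor signalling, were among the largest changes. Wild-type levels of Cyr61 were 7.74 on F11, 9.34 on F14_2, 9.70 on F15, 11.63 on F16 and 11.29 on F17. Mutant levels of Cyr61 were 9.23 on F12, 10.00 on F13, 8.49 on F18, 9.17 on F19 and 9.97 on F20. F16 and F17 were more than 1 unit above all others and F11 was the lowest. The mean of Cyr61, which binds integrins, was 9.94 ± 1.58 in wild type against 9.37 ± 0.63 in the mutant (SD over 5 arrays each), a change of -0.57 ± 0.66 (SE, limma adjusted p = 0.691). Without F16 and F17 it turned to 0.45. The slope on Fos was 0.56 ± 0.11 (SE, limma adjusted p = 0.299). Its 3 other probe sets had changes from -0.68 to -0.38, and 2 of them were highest on F15, so the probe sets differed in which array led.

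Ctgf, which promotes fibrosis downstream of TGF-beta, had the lowest p for a mean among the chosen probe sets. In wild type, Ctgf was 12.65 on F11, 12.75 on F14_2, 12.44 on F15, 13.21 on F16 and 13.29 on F17. Mutant arrays gave Ctgf levels of 12.37 on F12, 12.56 on F13, 12.10 on F18, 12.48 on F19 and 12.37 on F20. Every wild-type array but F15 was above every mutant array. The mean was 12.87 ± 0.37 in wild type against 12.38 ± 0.18 in the mutant (SD over 5 arrays each), a change of -0.49 ± 0.16 (SE, limma adjusted p = 0.204), and unadjusted p = 0.0125. Its change stayed negative in every fit that left out 1 array, between -0.60 and -0.38. Without F16 and F17 it was -0.23 (limma adjusted p = 0.537). With the mean of brown fat markers in the fit, which did not overlap between the groups, it was -0.21.

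The cytokine genes were dim. Ccl2, a monocyte attractant, lay between 3.03 and 3.16, Cxcl1, a neutrophil attractant, between 2.80 and 3.17, and Il6 between 2.26 and 2.31 on all 10 arrays. The ratio of SDs, wild type over mutant, was 5.47 for Ccl2 (permutation p = 0.0159), where F15 was low. It was 4.09 for Cxcl1 (permutation p = 0.0238), where F17 was low. The SD ratio had a permutation p of 0.579 for Fosl1, 0.508 for Dusp2, 0.270 for Dusp5, 0.587 for Myc and 0.627 for Il6. The mean of Cxcl1 was 0.09 higher in the mutant (exact permutation p = 0.0238). For the means of the other dim members that p lay between 0.0714 (Ccl2) and 0.437 (Fosb). These p-values were not adjusted for the number of genes. Ccl2, Cxcl1 and Il6 all lay around or under the arrays' medians of 3.14 to 3.20.

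**Figure D5:**
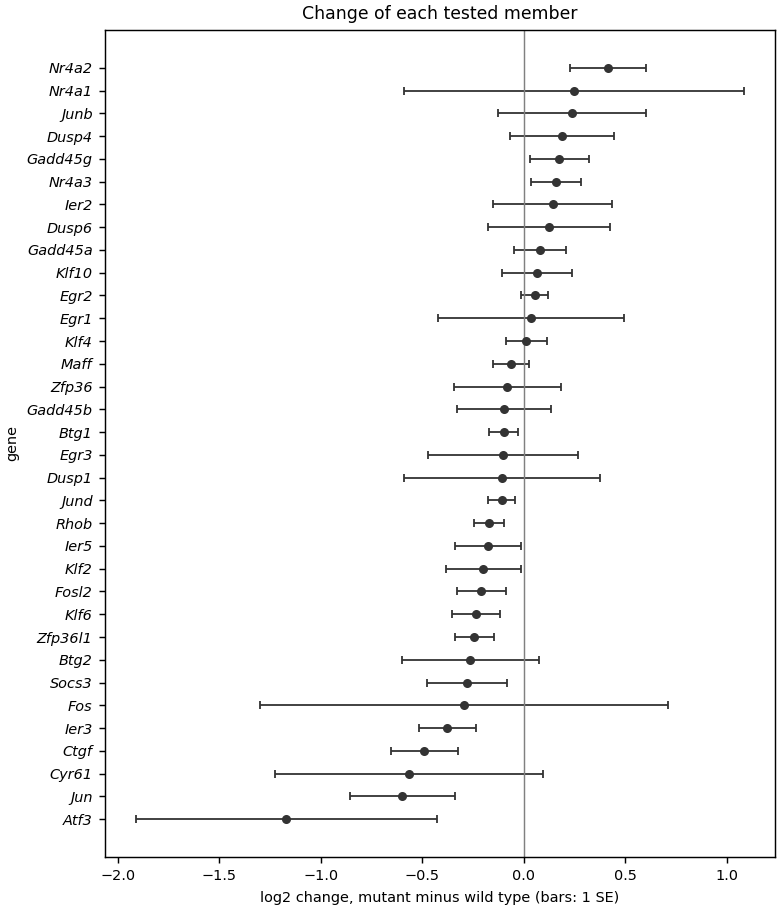
Log2 change of each of the 34 tested members, mutant minus wild type (points), with 1 standard error of the limma fit on either side (bars). Atf3 (-1.17) and Nr4a2 (0.42) mark the ends, Fos and Nr4a1 have the widest bars, and no member passed the adjusted threshold.

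Genes of the same pathway outside the members were read from 4 lists, whose counts at an unadjusted p stand beside the background of 15.3%. Of the upstream factors and kinases 24 of 34 were tested and 0 called in either direction by limma (4 at an unadjusted p under 0.05, all lower). The largest changes were Srf, the serum response factor gene (-0.35 ± 0.09 SE, limma adjusted p = 0.124), and Yap1, a Hippo pathway coactivator (-0.28 ± 0.09 SE, adjusted p = 0.190). Of other bZIP factors 15 of 19 were tested and 0 called (1 at an unadjusted p under 0.05, Cebpb). Cebpb, a C/EBP factor of inflammation and fat cells, had a change of 0.65 ± 0.15 (SE, limma adjusted p = 0.114), and Nfil3, a clock output repressor, one of 0.25 ± 0.26 (SE, adjusted p = 0.645). Of other induced early genes 29 of 34 were tested and 0 called (5 at an unadjusted p under 0.05, 2 higher and 3 lower), with the largest changes in Rnd3 (-0.42 ± 0.09 SE, limma adjusted p = 0.0884), and Bcl3, an NF-kappaB cofactor (0.39 ± 0.16 SE, adjusted p = 0.284). Of delayed AP-1 and serum response factor targets 18 of 28 were tested and 0 called (6 at an unadjusted p under 0.05, all lower), with Hbegf, an EGF receptor ligand (-0.39 ± 0.14 SE, limma adjusted p = 0.235), and Tpm1, a tropomyosin (-0.36 ± 0.08 SE, adjusted p = 0.121), at the front.

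In spread, these lists lay nearer the background of 46.8% than the members did. The SD was larger in wild type for 11 of 24 upstream genes, 7 of 15 bZIP genes, 14 of 29 other early genes and 10 of 18 delayed targets, beside 29 of 34 members. At an unadjusted p under 0.05, 5 of 29 other early genes were more variable in wild type, beside the background of 5.26%. None of the 4 lists had a gene called in the limma fit on Fos, beside 7 of 33 members. At an unadjusted p under 0.05, 9 of 29 other early genes, 4 of 15 bZIP genes, 2 of 18 delayed targets and 0 of 24 upstream genes rose with Fos, where the background was 2.95%. The difference between the lists and the members was not tested.

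Smooth muscle markers, which define the vessel wall, had list means between 10.59 and 11.04 on all 10 arrays and endothelial markers between 6.07 and 6.38. The mean was lower in the mutant for 7 of 8 smooth muscle markers and higher for 6 of 8 endothelial ones, with 0 called. The mean of the 8 brown fat markers was 8.14 to 8.78 in wild type and 9.04 to 9.75 in the mutant, with 8 of 8 higher in the mutant and 0 called. With that mean in the fit the change of Fos became 0.54, that of Atf3 0.48 and that of Cyr61 0.51, none called. Without it they were -0.30, -1.17 and -0.57. The brown fat mean did not overlap between the groups, so this fit cannot tell brown fat content from the mutation. The mean of the 12 skeletal muscle markers spanned 3.23 to 9.90 in wild type and 3.27 to 11.05 in the mutant. It was 9.90 on F16 and 3.28 on F17, and 12 of 12 markers had the higher mean in the mutant, 0 of them called. Macrophage markers were higher in the mutant for 7 of 8, with 0 called, and their mean was 7.08 on both F16 and F17, inside the wild-type range of 6.94 to 7.20. Of the neutrophil list 2 genes were bright enough to test, and their mean was 3.23 on F16 and 3.05 on F17 in a range from 3.01 to 3.84. The part of other cell types in the members' values was not tested.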

How the data were processed

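Total RNA from 10 aorta samples was hybridised to Affymetrix MOE 430V2 arrays, 5 of wild-type and 5 of NPAS2 mutant mice, per the labels. The values the authors deposited are on a log2 scale, with probes summarised to probe sets and arrays normalised beforehand. GCRMA and MAS5 are named in the submitters' processing notes, without saying which made the table; the log2 scale was read from the values (1.10 to 14.71). Probe sets were named from the platform's annotation, which is old (34945 with 1 gene, 932 with several, which name none). Hybridisation and scan dates were not at hand, which left batches unexamined, and no replicate names are shared between the groups.

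The values were used as deposited. Control probe sets (64) were left out, and 22340 above their array's median on at least 5 of 10 arrays were fitted two-sided with limma 3.58.1 (R 4.3.3) and called at a Benjamini-Hochberg adjusted p of 0.05. The spread fit was limma on absolute deviations from the group mean. Single members, dim ones included, had permutation tests over all splits of 5 against 5, exact for means. For SD ratios the deviations from the group means were permuted, which is approximate. The limma fits were tested on simulated data, where the spread fit gave no calls and unadjusted p under 0.05 more often than its nominal share. The members and lists were chosen with earlier results of these data known, and the fit on Fos and the omission of F16 and F17 together were added after the data were seen. Named members were Fos, Fosb, Jun, Junb, Jund and Egr1, the 6 with the largest change, the 6 with the SD ratio farthest from 1, and the members that followed Fos. Of each pathway list the 2 genes of largest change are named, since none was called. The number of arrays limits the precision. Sequences came from RefSeq (GRCm38.p6), where 33 of 42 members had a window that was used and the window listed first was taken. Member windows on a single chromosome were left out. Figures were drawn with matplotlib.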

Additional observations from a re-analysis of the deposited data

Results flagged for a closer look

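Of the 84 sets of 5 values examined (42 members in 2 groups), 10 held an array whose gap to the nearest other array, divided by the range of the group, was above 0.71, and chance gives about 5%. In wild type, Maff was high on F16 (3.74, next 3.32; ratio 0.934), Myc high on F11 (3.73, next 3.15; ratio 0.867), Dusp2 high on F14_2 (2.04, next 2.02; ratio 0.726) and Cxcl1 low on F17 (2.80, next 3.07; ratio 0.900). In the mutant, Nr4a3 was high on F12 (4.05, next 3.48; ratio 0.866), Egr2 high on F20 (4.12, next 3.93; ratio 0.788) and Ier5 low on F13 (5.49, next 5.81; ratio 0.845). Also in the mutant, Fosb was high on F19 (2.33, next 2.23; ratio 0.779), Cxcl1 high on F19 (3.17, next 3.11; ratio 0.864) and Myc low on F20 (2.81, next 3.04; ratio 0.736). Fosb, Dusp2, Myc and Cxcl1 were too dim to test. Fos, Egr1, Dusp1, Nr4a1 and Atf3 had no such array.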

How the results depend on the processing

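The count of members called for a mean stayed at 0 under every alternative run, each array left out in turn included. The count over all probe sets, 48, was 141 above the 75th percentile, 17 with no filter, 13 by an ordinary one-way analysis, 7 with a skeletal muscle covariate, 1 with a brown fat covariate, 2 without F16 and F17 together, and 9 to 43 with 1 array left out. Members called for spread were 0 to 1 with 1 array left out: Atf3, without F11 or F14_2. Members with the larger SD in the mutant, 5 of 34, were 3 of 25 above the 75th percentile, 3 of 34 with the skeletal muscle covariate, 13 without F16 and F17, and 4 to 8 with 1 array left out (8 without F14_2). Members following Fos, 7, were 2 without F16 and F17, 5 with no filter, 6 after quantile normalisation and 5 to 7 with 1 array left out. Values of single members that changed sign, none of them called, were as follows. Without F16 and F17 the change was 1.11 for Fos, 0.15 for Atf3, 0.45 for Cyr61 and 0.026 for Maff, and the SD ratio, mutant over wild type, was 1.31 for Atf3, 1.11 for Ctgf and 0.846 for Jund. With the brown fat covariate, which did not overlap between the groups, the change was 0.54 for Fos, 0.48 for Atf3 and 0.51 for Cyr61. With the skeletal muscle covariate it was -0.13 for Egr1 and -0.015 for Klf4, and the SD ratio of Jund was 0.988; with median centring the change of Klf4 was -0.0097 and the SD ratio of Jund 0.957. With 1 array left out, changes ranged from -0.94 to 0.28 for Fos, -0.27 to 0.28 for Egr1, -0.051 to 0.094 for Klf4 and -0.089 to 0.024 for Maff. SD ratios then ranged from 0.342 to 1.36 for Jund, 0.050 to 1.04 for Maff and 0.365 to 5.95 for Nr4a3. In all, 475 of the single-member values kept their direction and side of the threshold, 33 changed direction and 2 crossed the threshold. The cause was not tested, except that fits with fewer arrays or more probe sets have less power by construction. No paired analysis was possible because the groups share no replicate names. Signal over background limits Fosb, Fosl1, Dusp2, Dusp5, Myc, Ccl2, Cxcl1 and Il6.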
